A study of Mus musculus with 10 samples.

Results

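The replication-dependent histone genes are the clustered genes that supply most of the histone protein packed onto new DNA. They were taken by symbol: H1f1 to H1f5, which encode linker histones, and every symbol that starts with H2ac, H2bc, H3c or H4c and a digit, for the core histones H2A, H2B, H3 and H4. The rule found 65 genes among 52324 genes with a symbol: 5 for H1, 19 for H2A, 17 for H2B, 12 for H3 and 12 for H4. Of these, 55 lie on chromosome 13 and 10 on chromosome 3 (GRCm39 coordinates of the deposited table). Only 9 of the 65 reached 1 FPKM in at least 2 of 10 libraries, and H1f2, H2bc4 and H4c9 alone carried 77.6% to 83.2% of the summed level of all 65 in each library.

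In dividing cells these genes are switched on in S phase by NPAT at histone locus bodies and switched off when DNA synthesis ends. Most of their mRNAs carry no poly(A) tail: they end a few bases after a short stem-loop that SLBP binds and that the U7 small nuclear ribonucleoprotein helps to cut. Some of the genes can also be read through to a poly(A) signal further on, which gives a tailed mRNA. WEE1, the kinase inhibited by MK1775, is known for holding CDK1 off before mitosis, and has also been reported to phosphorylate histone H2B and lower histone transcription at the end of S phase.

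The libraries came from subcutaneous tumours grown from 4T1, a mouse mammary carcinoma line, and labelled day 14, and the labels sort them into 5 groups with 2 libraries each. The free drug was given alone (Free-MK1775) or with a partner (Free-MK1775+NLG919), the other form likewise (Lipo-MK1775 alone, and Lipo-MK1775+NLG), and a negative control stands against them, which the design text calls PBS. NLG919 acts on the IDO1 pathway of tryptophan breakdown, and the group labelled NLG was read as given NLG919, the name used in the design text. The sources used here state no dose, schedule, make-up of the Free and Lipo forms, mouse strain or age, nor whether libraries of a group are from different mice, so p-values measure only the spread between these samples.

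Mitochondrial transcripts made up 64.1% and 56.0% of the summed FPKM in the Lipo-MK1775 libraries and 47.3% in Free-MK1775+NLG919 replicate 2, against 2.88% to 4.82% in the other 7 libraries. FPKM, a level per length of transcript and per library total, counts those transcripts in its total, so each histone value is also given on a nuclear-rescaled scale, where all transcripts outside the mitochondrial genome sum to 1000000. Both Lipo-MK1775 libraries are among those 3 libraries, so the treatment and the high mitochondrial share cannot be told apart. Depth is known only relative to the shallowest library, Lipo-MK1775 replicate 1, and ran up to 1.98 times that in negative control replicate 1. The tumour label held for the keratins Krt8 (60.1 to 249.8 FPKM) and Krt18 (129.7 to 357.6 FPKM), which were present in all libraries. Of the other carcinoma markers Epcam ran from 0 to 3.82 FPKM and Krt14 was at 0 in part of the libraries. The macrophage gene Lyz2 was at 241.4 to 1079 FPKM, so the RNA is that of a mixed tumour. In such bulk RNA, fewer cells of a type and less RNA per cell cannot be told apart.

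The stem-loop is shown first, because it sets these mRNAs apart from other mRNAs and because the levels are set beside where each transcript model ends. The sequences are from GENCODE mouse transcripts (release M21, GRCm38), 30 bases each, 5′ to 3′ on the sense strand, with the stem-loop in capitals.
H1f2 stem-loop: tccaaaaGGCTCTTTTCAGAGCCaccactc
H2ac8 stem-loop: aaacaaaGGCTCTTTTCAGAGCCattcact
H2bc8 stem-loop: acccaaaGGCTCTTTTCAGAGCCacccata
H2bc12 stem-loop: caccaaaGGCTCTTTTAAGAGCCactaaac
H3c14 stem-loop: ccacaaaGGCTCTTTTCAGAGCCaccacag
H3c8 stem-loop: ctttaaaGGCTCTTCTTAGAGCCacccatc
H4c9 stem-loop: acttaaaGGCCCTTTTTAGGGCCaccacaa
H4c8 stem-loop: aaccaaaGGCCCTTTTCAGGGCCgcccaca
H4c2 stem-loop: tacaaaaGGTCCTTTTCAGGACCactcact
The motif searched, on the sense strand, was GGNNCT, any 4 bases and AGNNCC, with complementary arms. It was found in the leading model (the one with the highest mean FPKM) of 42 of the 65 genes, against 0.308% of 141767 GENCODE transcripts. A model that stops before the stem-loop cannot show it, so the other genes are not shown to lack it. The same 16 letters, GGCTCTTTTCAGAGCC, served 24 genes of H1, H2A, H2B and H3. The version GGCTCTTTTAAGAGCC was held by 5 genes, of H2B and H3. All H4 genes with the motif had stems of their own: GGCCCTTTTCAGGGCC in 6, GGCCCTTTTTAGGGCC in H4c9 and H4c14, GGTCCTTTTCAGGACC in H4c2 and H4c11, and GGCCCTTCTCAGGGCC in H4c1. The last versions were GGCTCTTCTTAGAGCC in H3c8 and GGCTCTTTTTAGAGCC in H2ac20.

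Some models end at a poly(A) signal. The last 30 bases of 4 such models follow, 3 of which run on past a stem-loop (H2bc21 holds none), with the signal AATAAA in capitals; they are shown because H1f2 and H2bc21 are among the few genes of the set with appreciable levels.
H1f2 end: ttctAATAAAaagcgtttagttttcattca
H2bc21 end: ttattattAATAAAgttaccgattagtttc
H2ac8 end: ccAATAAAtgggtcaatttttttcagattc
H3c14 end: ttttttaatcccAATAAAaatttaacacac
AATAAA stood in the last 40 bases of the leading model of 8 of the 65 genes, against 25.8% of GENCODE transcripts. In H1f2, which is 1560 bases long, the stem-loop lay at bases 705 to 720 and the model went on for 840 bases. In H4c9, of 727 bases, the stem-loop lay at 382 to 397 with 330 bases after it, and no AATAAA near the end. H2bc4 had a spliced model of 2 exons and 1156 bases with no stem-loop in it, and H2bc21 had no stem-loop but an AATAAA.

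The levels were dominated by a few genes. H1f2, the linker histone H1.2, averaged 32.8 FPKM over the 10 libraries, H2bc4 20.0 FPKM and H4c9 5.05 FPKM, and next came H2bc21 at 1.14 FPKM. Those 4 were the only genes with a mean of at least 1 FPKM. Another 43 had means between 0.1 and 1 FPKM, and 18 were near 0, that is under 0.1 FPKM. The median of the 65 means was 0.153 FPKM. For scale, the 24 S phase genes followed here (the replicative helicase, nucleotide synthesis and S phase cyclins) had a median of 11.8 FPKM with all 24 at 1 FPKM in at least 2 libraries. Replication-independent histones, which are made outside S phase too and mostly have poly(A) tails, had a median of 36.1 FPKM over 11 genes. Their sum was 884 FPKM, against 72.1 FPKM for the 65 replication-dependent genes.

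**Figure D1:**
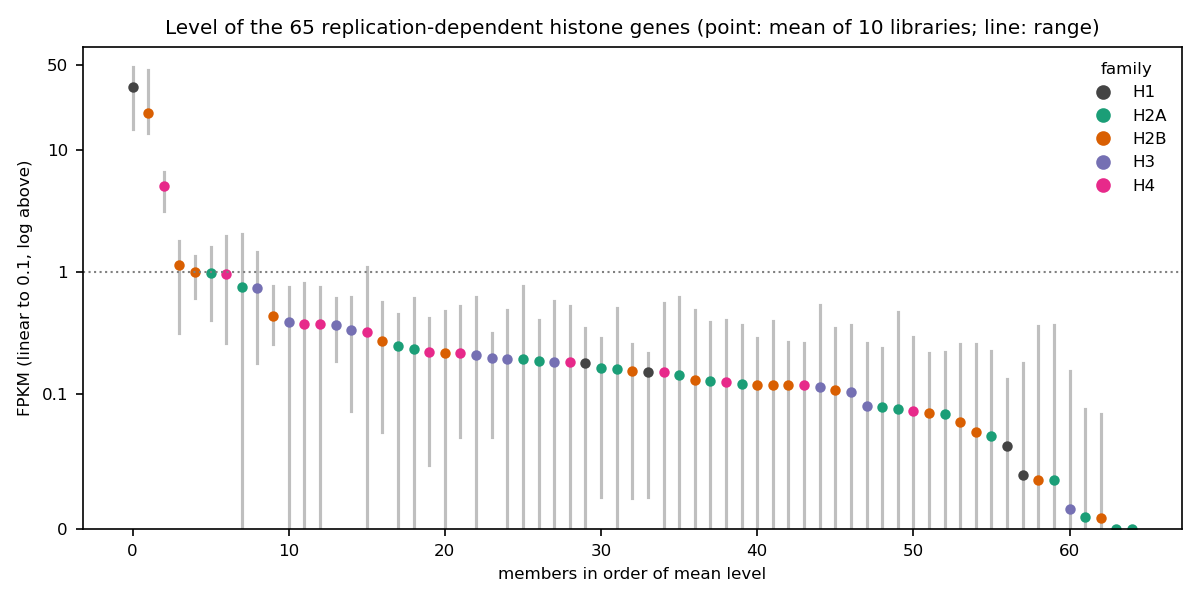
Level of each of the 65 replication-dependent histone genes, in order of mean FPKM (vertical axis, linear up to 0.1 and logarithmic above), coloured by family; points are means over the 10 libraries and lines run from the lowest to the highest library. H1f2, H2bc4 and H4c9 stand at 32.8, 20.0 and 5.05 FPKM, H2bc21 at 1.14, and the other 61 lie below the dotted line at 1 FPKM.

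Where the transcript model ends, and how high the gene stood, are shown side by side as a description. In 23 genes the model ended within 100 bases after the stem-loop, at 3 to 74 bases. A tail-less histone mRNA ends only a few bases after it, so most of these models run somewhat further. None of these 23 genes reached a mean of 1 FPKM: the highest was H4c8 at 0.961 FPKM and the median 0.118 FPKM. In 19 genes the model ran more than 100 bases past the stem-loop, with a median of 0.216 FPKM, and these included H1f2 and H4c9. In the last 23 the model held no stem-loop, with a median of 0.127 FPKM, and these included H2bc4 and H2bc21. Their median length was 399 bases, against 482 for the models that ended near the stem-loop. A model that stops before the stem-loop cannot show it, so these genes are not shown to lack one. AATAAA near the end was found in 6 of the 19, in 0 of the 23 that ended near the stem-loop and in 2 of the 23 without one. A model that is longer than the true mRNA lowers FPKM, which divides by length. Ends were read from the GENCODE models, and 3 leading models had another length in the deposited table. These were H2ac18 (1188 bases there, 586 in GENCODE), H2bc6 (3944 and 2480) and H3c14 (1825 and 1820). H2ac18 is among the 23 that ended near the stem-loop, and the end of its longer deposited model was not read. The library labels name total RNA and a NEBNext Ultra kit, and the sources used here do not say whether poly(A) RNA was selected, so its part in these low levels was not tested.

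**Figure D2:**
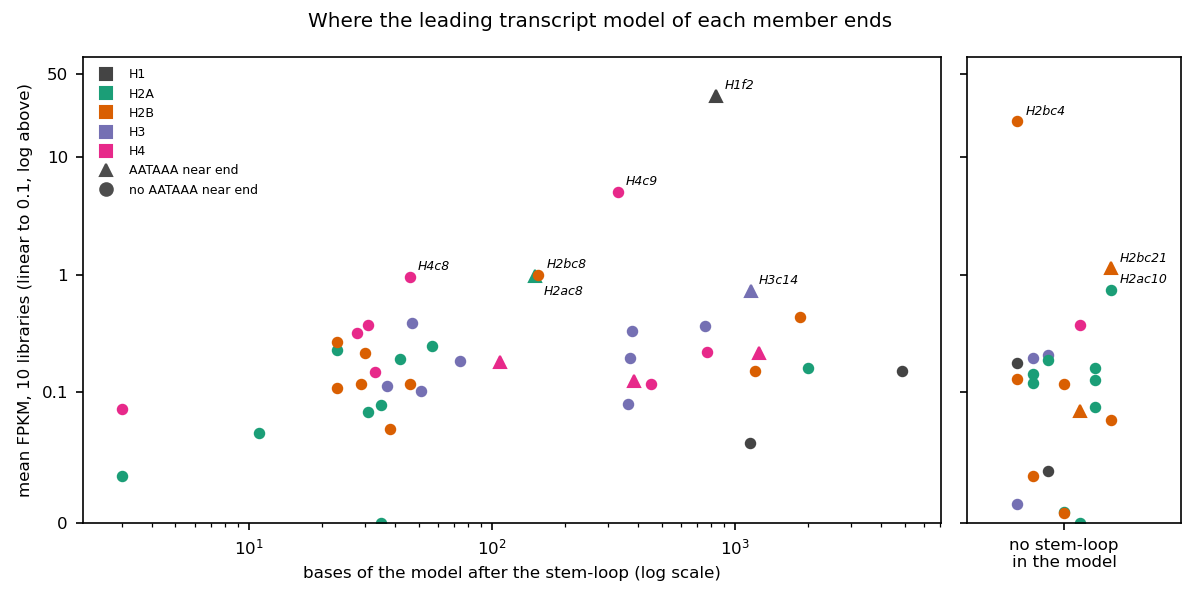
Mean FPKM over 10 libraries (vertical axis, linear up to 0.1 and logarithmic above) against the number of bases that the leading transcript model runs on after the stem-loop (logarithmic axis), for 42 genes with a stem-loop in the model, and at the right for 23 genes whose model holds none. Colours are families and triangles mark AATAAA near the end. Genes ending within 100 bases of the stem-loop all lie under 1 FPKM, while H1f2 (840 bases after it) and H4c9 (330 bases after it) stand at 32.8 and 5.05 FPKM.

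Sequence identity limits what can be read from a single gene. Of the words of 50 bases in a leading model, a median of 52.3% were found letter for letter in another gene of the set, and in 33 of the 65 genes at least 50% were. H2bc21, H2bc18, H1f1 and H1f5 shared none. The share was 8.54% for H1f2, 29.3% for H2bc4 and 28.9% for H4c9, but 79.7% for H2ac10, all of it with H2ac7. How the assembly split reads between such copies is uncertain. In 39 genes no library reached the value of about 10 reads, and between 10 and 24 of the 65 were at 0 in a library.

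Among the linker histones, H1f2 (13:23922791-23924350, plus strand) made up 98.7% of the summed level. H1f2 stood at 36.4 and 36.8 FPKM in Free-MK1775, 36.5 and 20.4 in Free-MK1775+NLG919, 14.7 and 25.7 in Lipo-MK1775, 48.4 and 43.8 in Lipo-MK1775+NLG, and 26.6 and 39.0 FPKM in the negative control. The 3 lowest values are the 3 libraries of high mitochondrial share, and none of them overlaps the other 7. On the nuclear-rescaled scale the same libraries had 65.9, 72.4 and 96.1 and the others 85.1 to 147.2, so the ranges met. Both Lipo-MK1775+NLG libraries were the highest of all on either scale. H1f5 had 0.260 and 0.254 FPKM in Free-MK1775, 0.097 and 0.314 in Free-MK1775+NLG919, 0 and 0 in Lipo-MK1775, 0.290 and 0.132 in Lipo-MK1775+NLG and 0.343 and 0.099 FPKM in the negative control. Both Lipo-MK1775 libraries were thus at 0, and the other 8 were not. These values are near the floor: H1f5 had the worth of about 4.3 reads in the median library and at most 10.4. The Lipo-MK1775 libraries were also the shallowest, at relative depths of 1 and 1.16. H1f3 had 0.215 and 0.210 FPKM in Free-MK1775, 0.170 and 0.215 in Free-MK1775+NLG919, 0.024 and 0.079 in Lipo-MK1775, 0.215 and 0.114 in Lipo-MK1775+NLG and 0.147 and 0.126 FPKM in the negative control. H1f4 and H1f1 were near 0, with highest values of 0.132 and 0.179 FPKM, and H1f4 shares its locus with H2bc6.

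H2bc4 (13:23868182-23876891, plus strand) made up 83.0% of H2B. It had 23.2 and 13.7 FPKM in Free-MK1775, 24.3 and 45.3 in Free-MK1775+NLG919, 14.4 and 16.1 in Lipo-MK1775, 17.5 and 14.4 in Lipo-MK1775+NLG, and 14.4 and 16.2 FPKM in the negative control. A single library, Free-MK1775+NLG919 replicate 2, stood far above the other 9, and it was the only one in which H2bc4 exceeded H1f2; the order was the reverse in 9 libraries. Its nuclear-rescaled value was 145.9, against 42.1 to 70.6 in the other 9. The Lipo-MK1775 libraries, the other 2 of high mitochondrial share, had 70.6 and 60.2 on that scale, and the part of that share in the value was not tested.

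H2bc21, known in mouse as the H2B variant H2BE of olfactory neurons and not tied to replication there, is in the set by its symbol alone. Its values were 1.77 and 1.40 FPKM in Free-MK1775, 1.73 and 0.575 in Free-MK1775+NLG919, 0.399 and 0.314 in Lipo-MK1775, 1.80 and 0.909 in Lipo-MK1775+NLG and 1.14 and 1.33 FPKM in the negative control. The 3 libraries of high mitochondrial share were the lowest on both scales, with 1.18 to 1.96 nuclear-rescaled against 2.66 to 5.49 in the other 7. H2bc8 was even across the groups: 0.612 and 1.35 FPKM in Free-MK1775, 0.836 and 1.01 in Free-MK1775+NLG919, 1.01 and 0.631 in Lipo-MK1775, 1.15 and 1.05 in Lipo-MK1775+NLG and 1.24 and 1.10 FPKM in the negative control.

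H4c9 (13:22224806-22225532, minus strand) made up 61.8% of H4. It had 5.44 and 6.09 FPKM in Free-MK1775, 5.97 and 5.81 in Free-MK1775+NLG919, 3.67 and 4.04 in Lipo-MK1775, 6.61 and 5.35 in Lipo-MK1775+NLG, and 3.15 and 4.38 FPKM in the negative control. Only the Lipo-MK1775 libraries overlapped the control. On the nuclear-rescaled scale all 8 libraries of treated tumours, at 15.1 to 20.1, lay above both control libraries, at 10.1 and 13.4. This pattern and its direction were picked after the values were seen. It was shown by 1.19% of the 12318 genes compared, and another 9.87% lay below both controls in all 8. Of the other 8 histone genes that passed the filter, 0 lay above and 0 below. As FPKM, H4c9 lay above both controls in the 5 treated libraries of low mitochondrial share, as did 9.44% of genes, while 8.14% lay below. H4c8 ranged more widely, with 1.21 and 0.259 FPKM in Free-MK1775, 1.73 and 1.28 in Free-MK1775+NLG919, 0.491 and 0.448 in Lipo-MK1775, 0.790 and 1.99 in Lipo-MK1775+NLG and 0.674 and 0.748 FPKM in the negative control. H4c18 had 0.476 and 0.234 FPKM in Free-MK1775, 0.166 and 0.812 in Free-MK1775+NLG919, 0 and 0.547 in Lipo-MK1775, 0.199 and 0.60 in Lipo-MK1775+NLG and 0.415 and 0.269 FPKM in the negative control. For H4c8 Free-MK1775+NLG919 and Lipo-MK1775+NLG lay above both controls and Lipo-MK1775 below both as FPKM; rescaled, Lipo-MK1775 overlapped them.

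**Figure D3:**
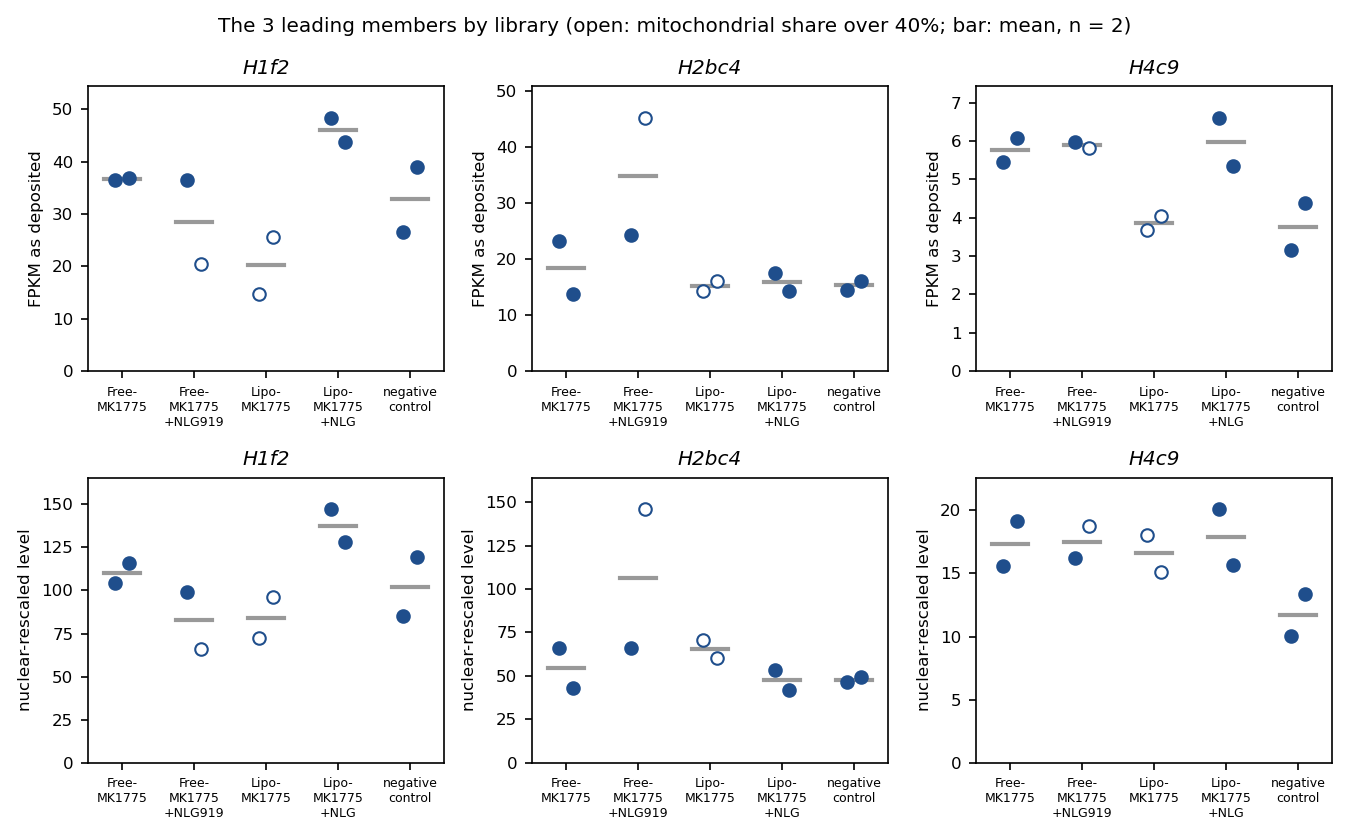
H1f2, H2bc4 and H4c9 in each library by group, as deposited FPKM (upper row) and nuclear-rescaled level (lower row); points are libraries, bars are means of 2, and open points are the 3 libraries with over 40% mitochondrial FPKM. H2bc4 stands apart in 1 library at 45.3 FPKM, and all treated libraries lie above both controls for nuclear-rescaled H4c9.

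H2A and H3 had no leading gene of that size. Their leading genes, H2ac8 and H3c14, made up 26.5% of H2A and 25% of H3. H2ac8 had 0.779 and 0.588 FPKM in Free-MK1775, 1.02 and 1.61 in Free-MK1775+NLG919, 1.31 and 1.26 in Lipo-MK1775, 0.956 and 0.400 in Lipo-MK1775+NLG and 0.508 and 1.29 FPKM in the negative control. H2ac10 had 0.557 and 0.539 FPKM in Free-MK1775, 1.36 and 2.03 in Free-MK1775+NLG919, 0.414 and 1.25 in Lipo-MK1775, 0 and 0.208 in Lipo-MK1775+NLG and 0.218 and 0.883 FPKM in the negative control. Both Free-MK1775+NLG919 libraries were thus the highest for H2ac10, and the Lipo-MK1775+NLG libraries the lowest. H2ac20 was lower, with 0.336 and 0.222 FPKM in Free-MK1775, 0.315 and 0.363 in Free-MK1775+NLG919, 0.220 and 0.455 in Lipo-MK1775, 0.076 and 0 in Lipo-MK1775+NLG and 0.314 and 0.170 FPKM in the negative control.

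For H3, H3c14 had 1.44 and 0.416 FPKM in Free-MK1775, 0.533 and 1.02 in Free-MK1775+NLG919, 0.179 and 0.705 in Lipo-MK1775, 1.25 and 0.434 in Lipo-MK1775+NLG and 0.928 and 0.392 FPKM in the negative control. Libraries of 1 group differed as much as the groups did. H3c8 had 0.664 and 0.556 FPKM in Free-MK1775, 0.426 and 0.568 in Free-MK1775+NLG919, 0 and 0.251 in Lipo-MK1775, 0.748 and 0.282 in Lipo-MK1775+NLG and 0.209 and 0.168 FPKM in the negative control. H3c4 had 0.229 and 0.185 FPKM in Free-MK1775, 0.295 and 0.611 in Free-MK1775+NLG919, 0.570 and 0.411 in Lipo-MK1775, 0.398 and 0.231 in Lipo-MK1775+NLG and 0.258 and 0.481 FPKM in the negative control. For H3c8, both control libraries were below all others but 1 Lipo-MK1775 library.

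The 18 genes near 0 were 8 of H2A, 5 of H2B, 2 of H1, 2 of H3 and 1 of H4. H2ac1 and H2ac19 were listed at 0 in all 10 libraries. H2ac1 and H2bc1 are the testis histones of the H2A and H2B families, and H2bc1 was above 0 in a single library, at 0.085 FPKM. H2ac14, H3c13 and H2ac24 were also above 0 in 1 library each, and H2bc18 in 2. The others near 0 were H2ac4, H2bc22, H2bc15, H2ac23, H2bc24, H4c17, H2ac12, H2ac18, H3c7, H1f1 and H1f4. None of the 18 exceeded 0.466 FPKM in any library. H2ac5-ps, a pseudogene that the prefix also takes in, had a mean of 0.119 FPKM.

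H2A and H2B genes often sit back to back, sharing the stretch between their starts. In these coordinates 14 such pairs were found, 175 to 305 bases apart. H2ac6 and H2bc4 are 250 bases apart, yet H2bc4 had a mean of 20.0 FPKM and H2ac6 of 0.161 FPKM, a ratio of 124.0. In the other 12 pairs with both genes above 0 the higher gene exceeded the lower by 1.0 to 13 times; H2ac8 and H2bc8 were nearly equal at 0.973 and 0.997 FPKM. The RefSeq window of H2ac6 (GRCm38.p6, chr13:23683910-23684209, minus strand, 250 bases before its start and 50 after) covers the stretch between the pair and is shown because both genes start beside it. Capitals mark CCAAT and its reverse ATTGG, ATGCAAAT (the reverse of the octamer ATTTGCAT) and TATAAA.
H2ac6 promoter: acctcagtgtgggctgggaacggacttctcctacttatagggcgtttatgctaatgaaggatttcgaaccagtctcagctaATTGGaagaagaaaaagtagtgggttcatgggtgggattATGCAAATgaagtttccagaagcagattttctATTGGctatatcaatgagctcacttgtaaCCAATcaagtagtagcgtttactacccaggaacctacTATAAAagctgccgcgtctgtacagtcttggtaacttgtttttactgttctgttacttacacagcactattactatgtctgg
It holds TATAAA 32 bases before the H2ac6 start, CCAAT at 69, ATTGG at 98 and 169, and ATGCAAAT at 130. Over both strands and windows of 300 bases, CCAAT was in 86.0% of the 57 promoters matched by symbol and in 37.4% of all 32851, TATAAA in 59.6% and 13.6%, and ATTTGCAT in 21.1% and 1.74%. CCAAT was in every H1, H2A, H2B and H3 promoter matched and in 3 of 11 of H4, and ATTTGCAT was in 6 of 17 of H2A, 6 of 14 of H2B and no other. A match is only a match of letters. H2bc4 was not among the promoters matched.

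Summed over all 65 genes, the level was 81.1 and 68.1 FPKM in Free-MK1775, 83.3 and 91.9 in Free-MK1775+NLG919, 42.2 and 59.0 in Lipo-MK1775, 87.2 and 78.2 in Lipo-MK1775+NLG, and 56.0 and 73.6 FPKM in the negative control. The means were 74.6 ± 9.19 FPKM in Free-MK1775, 87.6 ± 6.03 in Free-MK1775+NLG919, 50.6 ± 11.9 in Lipo-MK1775, 82.7 ± 6.32 in Lipo-MK1775+NLG and 64.8 ± 12.4 FPKM in the negative control (SD, n = 2 each). Free-MK1775+NLG919 and Lipo-MK1775+NLG did not overlap the control, while the other 2 groups did. After nuclear rescaling the sums were 231.9 and 214.2 in Free-MK1775, 226.7 and 296.1 in Free-MK1775+NLG919, 207.7 and 220.8 in Lipo-MK1775, 265.0 and 228.9 in Lipo-MK1775+NLG and 179.2 and 224.8 in the negative control. The ratio of Lipo-MK1775 to the control was 0.781 on FPKM, 1.06 on the nuclear-rescaled scale and 1.94 with median-of-ratios scaling, so its direction turned with the scaling. Without H1f2, H2bc4 and H4c9 the other 62 genes summed to 9.48 to 20.3 FPKM, again highest in Free-MK1775+NLG919 replicate 2.

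Whether a drug regimen moved single histone genes was tested with limma on log2(FPKM + 1) over 12345 genes that reached 1 FPKM in at least 2 libraries, with Benjamini-Hochberg adjusted p-values over all of them and calls under 0.05. The 9 histone genes in that test are H1f2, H2ac8, H2ac10, H2bc4, H2bc21, H2bc8, H3c14, H4c9 and H4c8. The other 56 did not pass the filter. H2ac10 reached 1 FPKM only in both Free-MK1775+NLG919 libraries and in Lipo-MK1775 replicate 2. It thus passed only through Free-MK1775+NLG919, its highest group, and its comparisons with that group are selected on those values. The 4 comparisons with the control share its 2 libraries. Fold changes are on the log2(FPKM + 1) scale, which understates the change of low genes.

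Free-MK1775 against the negative control called 0 of the 9, where 0.0081% of all genes were called. No histone gene had an unadjusted p under 0.05, as 182 of all genes did. The 9 changes had a median of 0.18, against 0 for all genes, with 6 positive and 3 negative. H4c9 was at 5.77 ± 0.455 FPKM in Free-MK1775 and 3.76 ± 0.871 FPKM in the negative control (SD, n = 2 each), a log2 change of 0.52 (SE 0.33, limma adjusted p = 1). H1f2 was at 36.6 ± 0.278 FPKM in Free-MK1775 and 32.8 ± 8.79 FPKM in the negative control, within the spread of the controls. The libraries did not overlap for 2 of the 9, against 34% of all genes.

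Free-MK1775+NLG919 against the negative control also called 0 of the 9, with 0.0567% of all genes called, while 2 of the 9 had an unadjusted p under 0.05. H2bc4 averaged 34.8 ± 14.8 FPKM in Free-MK1775+NLG919 and 15.3 ± 1.23 FPKM in the negative control (SD, n = 2 each), a log2 change of 1.07 (SE 0.39, limma adjusted p = 0.267). Without the 3 libraries of high mitochondrial share, which leaves 1 library of the group, the change was 0.64 (limma adjusted p = 0.336). With Free-MK1775+NLG919 replicate 2 as the only library of the group it was 1.51 (limma adjusted p = 0.00814). H2ac10 had a log2 change of 0.82 (SE 0.34, limma adjusted p = 0.303). Libraries of 5 of the 9 genes did not overlap, against 41.4% of all genes, and the median change was 0.31 for the 9 and -0.34 for all genes. After nuclear rescaling 0 of the 9 were again called, with 0.0325% of all genes called, each of them lower, and 5 of the 9 did not overlap, against 52.4% of all genes.

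Lipo-MK1775 against the negative control called 0 of the 9, where 48.2% of all genes were called, nearly all of them lower (47.3% lower, 0.98% higher). The median change of the 9 was -0.21, against -1.01 for all genes. On this scale 4 of the 9 (H2ac8, H2ac10, H3c14 and H4c8) could not have fallen below -1.01 even at 0 FPKM, since their control levels are so low, so the medians are not like for like. The 5 that could were H1f2, H2bc4, H2bc21, H2bc8 and H4c9, and each of them lay above -1.01. For H2bc21 and H2bc8 this was nearly fixed in advance, since even at 0 FPKM they would reach only -1.16 and -1.11. H2bc4 was at 15.2 ± 1.24 FPKM in Lipo-MK1775 and 15.3 ± 1.23 FPKM in the negative control, a log2 change of -0.01 (SE 0.39, limma adjusted p = 0.986). H4c9 was at 3.86 ± 0.255 FPKM in Lipo-MK1775 and 3.76 ± 0.871 FPKM in the negative control (0.04, SE 0.33, limma adjusted p = 0.921). The lowest changes were those of H2bc21 (-0.72, SE 0.35, limma adjusted p = 0.0979) and H1f2 (-0.70, SE 0.39, limma adjusted p = 0.144). H2bc21 passed the test when only the 2 groups compared were fitted (limma adjusted p = 0.0224) or when a Free-MK1775+NLG919 library was left out (limma adjusted p = 0.0292 and 0.0291). Nuclear rescaling left 26.9% of all genes called (25.5% lower, 1.46% higher) and again 0 of the 9, with medians of -0.05 for the 9 and -0.86 for all genes. On that scale H2bc21 was at -0.93 and no longer above the median of all genes. Low control levels still limited H2ac10, H3c14 and H4c8, which at 0 FPKM would reach only -1.33, -1.56 and -1.69. Libraries of 4 of the 9 did not overlap on FPKM, against 85% of all genes, and 4 after rescaling, against 80.4%.

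Lipo-MK1775+NLG against the negative control called 0 of the 9, and 0.0081% of all genes. The medians were 0.05 for the 9 and 0.04 for all genes. H4c9 had a log2 change of 0.56 (SE 0.33, limma adjusted p = 1) and H1f2 of 0.50 (SE 0.39, limma adjusted p = 1), with H1f2 at 46.1 ± 3.29 FPKM in Lipo-MK1775+NLG and 32.8 ± 8.79 FPKM in the negative control (SD, n = 2 each). H2ac10 was lowest at -0.46 (SE 0.34, limma adjusted p = 1). Libraries of 4 of the 9 did not overlap, against 48.2% of all genes.

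**Figure D4:**
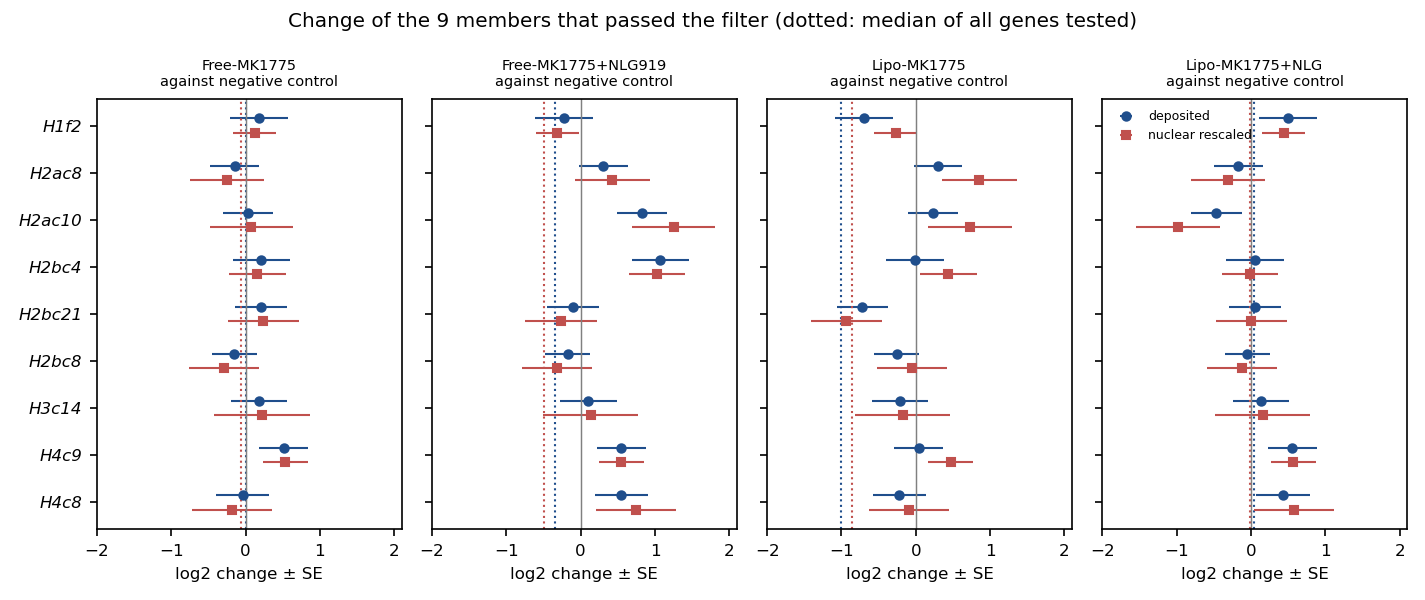
Log2 change ± standard error of the 9 histone genes that passed the filter, in the 4 comparisons with the negative control (n = 2 libraries a group), on deposited FPKM (circles) and on the nuclear-rescaled scale (squares); dotted lines are the median change of all genes tested. In the Lipo-MK1775 panel the 5 genes whose control level would allow a lower value (H1f2, H2bc4, H2bc21, H2bc8 and H4c9) lie to the right of the median of all genes as deposited (-1.01). H2bc21 and H2bc8 had little room there, since at 0 FPKM they would lie at -1.16 and -1.11. Rescaled, where all 9 could lie lower, all but H2bc21 lie to the right of -0.86. H2ac10, H3c14 and H4c8 had the least room there, since at 0 FPKM they would lie at -1.33, -1.56 and -1.69.

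Between the treated groups the calls were few. Lipo-MK1775 against Free-MK1775 called H2bc21 lower, at 0.356 ± 0.0597 FPKM in Lipo-MK1775 and 1.59 ± 0.258 FPKM in Free-MK1775 (log2 change -0.93, SE 0.35, limma adjusted p = 0.0462). That is 1 of 9 called, where 48.3% of all genes were called, with 47.5% lower and 0.834% higher. The call was lost on nuclear rescaling (-1.17, limma adjusted p = 0.101), with median-of-ratios scaling, where the change was less than that as FPKM (-0.39, limma adjusted p = 0.342), and on leaving out any single library outside Free-MK1775+NLG919 (limma adjusted p = 0.0622 to 0.171). H1f2 had -0.88 (SE 0.39, limma adjusted p = 0.0765). Libraries of 4 of the 9 did not overlap, against 85.2% of all genes.

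Lipo-MK1775+NLG against Lipo-MK1775, which differ by NLG919, called H1f2 higher, at 46.1 ± 3.29 FPKM in Lipo-MK1775+NLG and 20.2 ± 7.74 FPKM in Lipo-MK1775 (log2 change 1.20, SE 0.39, limma adjusted p = 0.0291). This was 1 of 9 where 53.8% of all genes were called higher, and the median change was 0.34 for the 9 and 1.06 for all genes. Nuclear rescaling reduced it to 0.71 (limma adjusted p = 0.0891), and it also missed the threshold without Lipo-MK1775 replicate 1 (0.82, limma adjusted p = 0.193) or without either Lipo-MK1775+NLG library (1.13 and 1.27, limma adjusted p = 0.133 and 0.107). With libraries scaled by the median of ratios the sign turned (-0.13, limma adjusted p = 0.721). Libraries of 7 of the 9 did not overlap, against 87.4% of all genes.

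Lipo-MK1775+NLG against Free-MK1775+NLG919 called 0 of the 9, and 0.0162% of all genes. H2ac10 was lowest, at 0.104 ± 0.147 FPKM in Lipo-MK1775+NLG and 1.70 ± 0.474 FPKM in Free-MK1775+NLG919 (log2 change -1.28, SE 0.34, limma adjusted p = 0.377). H2bc4 had -1.02 (SE 0.39, limma adjusted p = 0.488). With Free-MK1775+NLG919 replicate 1 left out, both were called lower (limma adjusted p = 0.0189 and 0.0095) and H1f2 higher (limma adjusted p = 0.034). Libraries of 5 of the 9 did not overlap, against 37.8% of all genes. Free-MK1775+NLG919 against Free-MK1775 called 0 of the 9, and 0.0081% of all genes; H2bc4 had 0.86 (SE 0.39, limma adjusted p = 0.582) and H2ac10 0.79 (SE 0.34, limma adjusted p = 0.582). Without Free-MK1775+NLG919 replicate 1 the change of H2bc4 was 1.29 (limma adjusted p = 0.0151). Libraries of 4 of the 9 did not overlap, against 28.3% of all genes.

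Whether the difference with NLG919 depended on the form of MK1775 was tested by the interaction, the Lipo-MK1775+NLG minus Lipo-MK1775 difference less the Free-MK1775+NLG919 minus Free-MK1775 difference. It called H1f2 at 1.61 (SE 0.55, limma adjusted p = 0.0372) and H2ac10 at -1.49 (SE 0.48, limma adjusted p = 0.0308), that is 1 of 9 in each direction where 47% of all genes were called, with 45.9% positive and 1.12% negative. For H1f2 the 2 differences were 1.20 in the Lipo form and -0.41 in the Free form, and for H2ac10 they were -0.70 and 0.79. After nuclear rescaling H1f2 was at 1.15 (limma adjusted p = 0.0568) and H2ac10 at -2.88 (limma adjusted p = 0.0374). With median-of-ratios scaling H1f2 turned sign (-0.16, limma adjusted p = 0.745) and H2ac10 missed the threshold (-2.19, limma adjusted p = 0.0741). The replicate block also ended the call of H1f2 (limma adjusted p = 0.053), and without a filter both were lost (limma adjusted p = 0.0877 for H1f2 and 0.0799 for H2ac10). The 3 libraries of high mitochondrial share are all in this test, their part in it was not tested, and H2ac10 shares most of its letters with H2ac7. H2ac10 also entered the test only through Free-MK1775+NLG919, its highest group, so its call is selected on those values.

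Many genes that serve the histone genes were lower in Lipo-MK1775. Of 15 tested genes for histone transcription and 3′ end processing, 11 were called lower and 0 higher against the control, where 47.3% of all genes were called lower, with a median of -1.45 against -1.01 for all genes. Slbp, the stem-loop binding protein, had 7.06 and 8.54 FPKM in Lipo-MK1775, against 23.3 and 25.8 FPKM in the negative control (log2 change -1.54, limma adjusted p = 0.0195). It was also low in Free-MK1775+NLG919 replicate 2, at 10.7 FPKM, and at 23.2 to 30.3 FPKM in the other 7 libraries. Npat, which starts histone transcription, had 0.0272 and 0.0200 FPKM in Lipo-MK1775, against 1.67 and 1.71 FPKM in the negative control (-1.39, limma adjusted p = 0.0254). It was at 0.00237 FPKM in Free-MK1775+NLG919 replicate 2. On the nuclear-rescaled scale 8 of the 15 were called lower, where 25.5% of all genes were, Slbp (-1.18, limma adjusted p = 0.0437) and Npat (-2.51, limma adjusted p = 0.0364) among them.

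Of 24 S phase genes, 18 were called lower in Lipo-MK1775 than in the control and 0 higher, where 47.3% of all genes were called lower, and 10 lower after nuclear rescaling, where 25.5% were. Pcna, the sliding clamp of DNA polymerase, was at 33.6 and 33.4 FPKM in Lipo-MK1775, against 101.2 and 106.4 FPKM in the negative control (-1.60, limma adjusted p = 0.0173). Mcm6, of the replicative helicase, had -2.14 (limma adjusted p = 0.0152). Of 12 histone chaperones and import factors 8 were called lower, and 3 after rescaling, a share close to the 25.5% of all genes; Nasp, which binds free histones, had -1.25 (limma adjusted p = 0.0182) and Rbbp7 -1.54 (limma adjusted p = 0.0155). Wee1 (-1.52, limma adjusted p = 0.0165) and Cdk1 (-1.37, limma adjusted p = 0.0189) were both called lower, on both scales. In the 3 other comparisons with the control, 0 members of each of these lists were called. In Free-MK1775+NLG919 the S phase list had a median of -0.85 with 20 of 24 changes below 0, against a median of -0.34 for all genes. That group holds 1 library of high mitochondrial share, replicate 2. Pcna was at 33.8 FPKM there and at 95.9 FPKM in replicate 1. Mcm6 was at 9.64 and 40.6 FPKM in the same order, against 59.9 and 56.7 FPKM in the negative control.

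Calls among the replication-independent histones were few. In Lipo-MK1775 against the control 3 of 9 tested were called lower and 0 higher, where 47.3% of all genes were called lower, with a median of -0.50. Those 3 were H2az1 (-1.05, limma adjusted p = 0.0423), H2ax, the variant marked at DNA breaks (-0.91, limma adjusted p = 0.0401), and the centromere variant Cenpa (-1.10, limma adjusted p = 0.0417). H3f3b, an H3.3 gene, had 133.1 and 177.4 FPKM in Lipo-MK1775, against 259.2 and 321.4 FPKM in the negative control (-0.91, limma adjusted p = 0.0577). The linker histone H1f0 had 123.9 and 113.6 FPKM in Lipo-MK1775, against 133.4 and 202.0 FPKM in the negative control (-0.47, limma adjusted p = 0.259). After nuclear rescaling 0 were called lower and H2aj was called higher (0.88, limma adjusted p = 0.0397), with a list median of -0.06.

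Some other RNAs known to lack a poly(A) tail rose in the same comparison. Rn18s, the 18S ribosomal RNA, had 3655 and 3618 FPKM in Lipo-MK1775, against 1202 and 813.8 FPKM in the negative control (1.88, limma adjusted p = 0.0158). Rmrp, the RNA of RNase MRP, had 9.43 and 7.57 FPKM in Lipo-MK1775, against 2.33 and 1.25 FPKM in the negative control (1.79, limma adjusted p = 0.0352). Rpph1, the RNA of RNase P, had 1.22 and 1.37 FPKM in Lipo-MK1775, against 0.102 and 0.253 FPKM in the negative control (0.97, limma adjusted p = 0.0349). Free-MK1775+NLG919 replicate 2 was with them, at 3220 FPKM for Rn18s, 9.74 for Rmrp and 1.03 for Rpph1, above all 7 libraries of low mitochondrial share. Of the 5 tested, 3 were called higher, where 0.98% of all genes were. Rny3, also tested, was at 0 FPKM in both Lipo-MK1775 libraries and in both negative control libraries, so it did not rise. Malat1, a nuclear RNA whose end is not a regular poly(A) tail, was called lower (-1.76, limma adjusted p = 0.0246), as were 47.3% of all genes. After rescaling Rn18s and Rpph1 were called higher, where 1.46% of all genes were, and 0 lower. Rpph1 reached 1 FPKM only in the 3 libraries of high mitochondrial share, so it passed the filter through them alone and its calls are selected on those values. Terc and Rny1 did not pass the filter. In the same 3 libraries nuclear-rescaled H2bc4 was above both controls (60.2 to 145.9 in those libraries, against 46.2 and 49.5 in the negative control), as it was in 3 of the 5 treated libraries of low mitochondrial share (53.3 to 66.3), and H1f2, at 65.9 to 96.1, overlapped the controls, at 85.1 and 119.3. The part of the mitochondrial share and of RNA without a tail in the histone values was not tested.

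**Figure D5:**
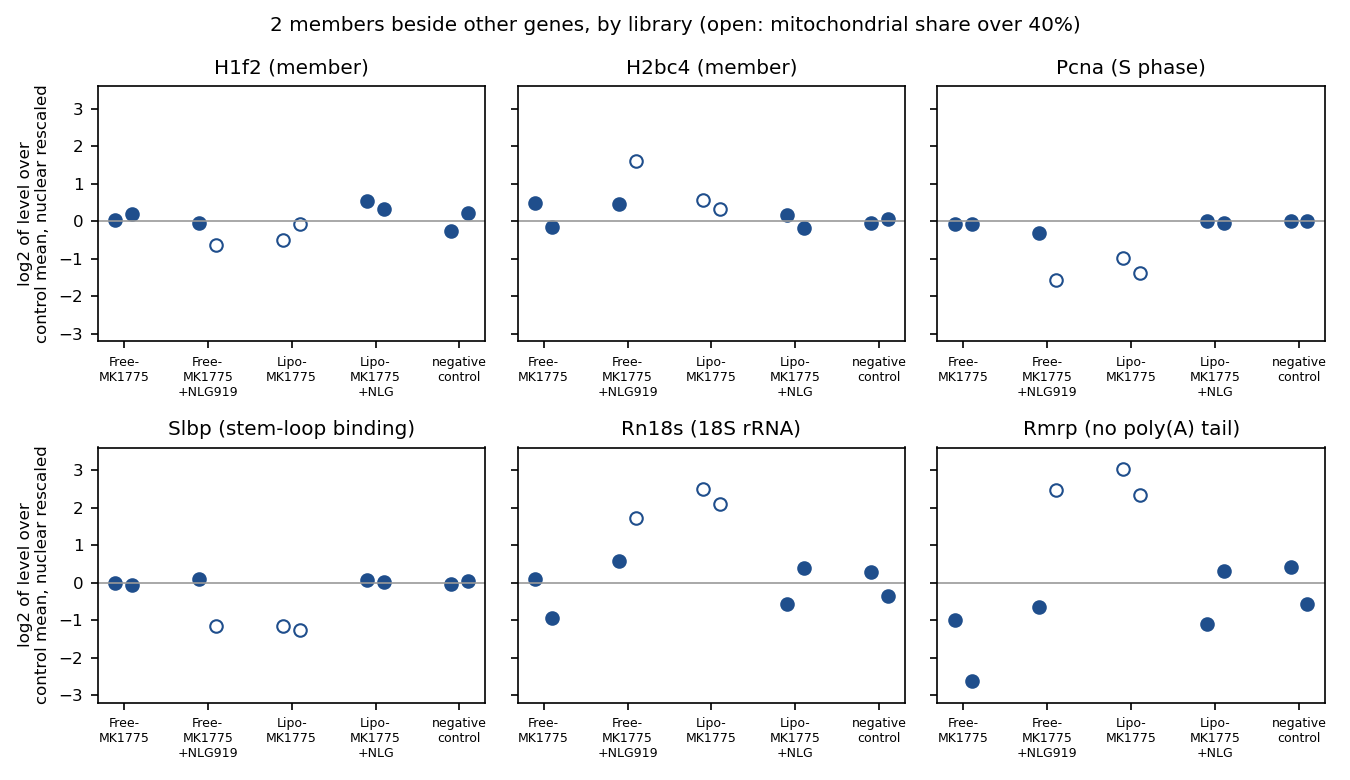
Nuclear-rescaled level of H1f2, H2bc4, Pcna, Slbp, Rn18s and Rmrp in each library, as log2 of the ratio to the mean of the 2 negative control libraries (line at 0); open points are the 3 libraries with over 40% mitochondrial FPKM. In those 3 libraries Pcna and Slbp lie below the controls and Rn18s and Rmrp above them, while H2bc4 lies above and H1f2 below the control mean.

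Some cell type markers were low in the same libraries, though not only there, and others were not. The 5 carcinoma markers summed to 190.8 and 386.6 FPKM in Lipo-MK1775, against 540.9 and 601.1 FPKM in the negative control, and to 324.1 FPKM in Free-MK1775+NLG919 replicate 2. The 3 endothelial markers summed to 4.40 and 3.24 FPKM in Lipo-MK1775, against 30.6 and 22.4 FPKM in the negative control, and to 7.98 FPKM in Free-MK1775+NLG919 replicate 2. Ptprc, the leukocyte marker CD45, had 3.81 and 7.21 FPKM in Lipo-MK1775, against 16.4 and 15.4 FPKM in the negative control, and 6.17 FPKM in that Free-MK1775+NLG919 library. These 3 sums stayed below both controls in the 3 libraries after nuclear rescaling. The carcinoma sum did so too in Free-MK1775 replicate 1 (1411) and Free-MK1775+NLG919 replicate 1 (1258), against 1730 and 1837 in the negative control. Endothelium did in Free-MK1775+NLG919 replicate 1 (42.9) and Lipo-MK1775+NLG replicate 2 (61.2), against 97.8 and 68.3. Ptprc did in Free-MK1775 replicate 1 (40.4) and Free-MK1775+NLG919 replicate 1 (43.6), against 52.6 and 46.9. The other treated libraries of low mitochondrial share were not below both. The carcinoma sum of negative control replicate 1 holds rescaled Krt14 at 449.3, which was 0 in replicate 2. Rescaled Krt18 was at 637.9 and 989.8 in Lipo-MK1775 and 751.6 in that Free-MK1775+NLG919 library, and overlapped the controls at 725.6 and 1093. Krt8 did not: 295.7, 450.3 and 291.6, in the same order, against 530.0 and 735.5. The macrophage (425.7 to 603.0 against 552.0 to 815.5 FPKM), neutrophil (109.0 to 502.0 against 295.9 to 400.5), fibroblast (34.9 to 86.0 against 78.3 to 89.0), T cell (2.27 to 4.00 against 2.57 to 5.12) and B cell sums (0.405 to 0.724 against 0.488 to 0.799) of Lipo-MK1775 overlapped those of the negative control. Erythroid, muscle and keratinocyte sums were lower in Lipo-MK1775 than in the negative control as FPKM, and the erythroid sums overlapped after rescaling. The part of these cells in the histone values was not tested.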

How the data were processed

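Total RNA of 10 tumour libraries was sequenced; the submitters' processing notes name StringTie, HISAT2, Trim Galore and FastQC with build GRCm39, without versions. The authors deposited 1 table of FPKM for 161762 transcripts; read counts were not used here and strand is not stated, so overlapping genes cannot be told apart. Rows were summed by gene symbol (21051 rows carry none). Members and lists were chosen with earlier results of these data known. Genes at 1 FPKM or more in at least 2 libraries were fitted with limma 3.58.1 (R 4.3.3; trended moderated test, two-sided, pseudocount 1, all 10 libraries, a mean per group), and tested on simulated data. Relative depth comes from the most frequent low value of FPKM times length, over single-exon transcripts alone in their locus. That value was taken as the worth of 1 read. Named with values in every library were the 3 highest members of each family, and per comparison up to 4 called a direction; other lists are given by counts with up to 4 high members and 2 of smallest p. Replicate numbers did not pair samples (correlations of deviations -0.192 to 0.056). Alternatives were pseudocount, filter, scaling, assembled transcripts, replicate block, trend, groups fitted and each library left out; the joint omission of the 3 libraries with nuclear rescaling was added after seeing the data. DNA motifs were read from GENCODE and RefSeq sequences of GRCm38.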

Additional observations from a re-analysis of the deposited data

Results flagged for a closer look

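The interaction test called 2 histone genes for a difference with NLG919 that was not the same in the Lipo and Free forms of MK1775. H1f2 had an interaction of 1.61 on the log2 scale (limma adjusted p = 0.0372), with 48.4 and 43.8 FPKM in Lipo-MK1775+NLG, 14.7 and 25.7 in Lipo-MK1775, 36.5 and 20.4 in Free-MK1775+NLG919 and 36.4 and 36.8 in Free-MK1775. H2ac10 had -1.49 (limma adjusted p = 0.0308), with 0 and 0.208 FPKM in Lipo-MK1775+NLG, 0.414 and 1.25 in Lipo-MK1775, 1.36 and 2.03 in Free-MK1775+NLG919 and 0.557 and 0.539 in Free-MK1775. Of all genes, 47% were called in this test, with 45.9% positive and 1.12% negative. Both Lipo-MK1775 libraries and Free-MK1775+NLG919 replicate 2 are those of high mitochondrial share. The treatments and that share cannot be told apart in this test. H2ac10 passed the filter only through Free-MK1775+NLG919, its highest group, so its call is selected on those values. H1f2 missed the threshold with nuclear rescaling (1.15, limma adjusted p = 0.0568) and with the replicate block (limma adjusted p = 0.053), and turned sign with median-of-ratios scaling (-0.16). H2ac10 missed it with that scaling (-2.19, limma adjusted p = 0.0741), and both did without a filter (limma adjusted p = 0.0877 for H1f2 and 0.0799 for H2ac10).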

How the results depend on the processing

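Counts of histone genes called are given here, out of 9 tested. Lipo-MK1775 against Free-MK1775 called 1 lower, and 0 without a filter, with nuclear rescaling, median-of-ratios scaling, the replicate block (H2bc21 adjusted p = 0.052) or no variance trend; leaving out a library gave 0 to 2, with 2 without either Free-MK1775+NLG919 library and 0 without any other. Lipo-MK1775+NLG against Lipo-MK1775 called 1 higher, 0 without a filter and under both rescalings, 2 with only the groups compared, and 0 to 3 on leaving out a library. The interaction called 1 positive and 1 negative: 0 and 0 without a filter and with median-of-ratios scaling, 0 positive with nuclear rescaling, the replicate block (H1f2 adjusted p = 0.053) or only the groups compared, and 0 to 2 each way on leaving out a library, with 2 each way without Free-MK1775+NLG919 replicate 1. Lipo-MK1775 against the control called 0 lower, 1 with only the groups compared, and 0 to 1 on leaving out a library. Leaving out a library also gave 0 to 1 higher in Free-MK1775+NLG919 against the control and against Free-MK1775, and 0 to 1 higher and 0 to 2 lower in Lipo-MK1775+NLG against Free-MK1775+NLG919; in these 3 the changed count came without Free-MK1775+NLG919 replicate 1. Where a single library is left in a group, it is assumed to vary like the others. H1f2 turned sign with median-of-ratios scaling, to -0.13 in Lipo-MK1775+NLG against Lipo-MK1775 and -0.16 in the interaction. The summed ratio to the control was 2.01 for Free-MK1775+NLG919 (1.35 as FPKM) and 1.94 for Lipo-MK1775 with that scaling, and 1.06 for Lipo-MK1775 with nuclear rescaling (0.781 as FPKM). The cause of these shifts was not tested. Without the 3 libraries of high mitochondrial share, 0 histone genes were called on either scale in the 5 comparisons that remain. The replicate block changed no other call of a histone gene. With 2 libraries a group and about 10 reads or fewer behind 39 of the 65 genes, small changes are not detectable at this depth.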
